A study of Rattus norvegicus with 6 samples.

Results

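The genes described here are the antioxidant and Nrf2 target genes of cultured vascular smooth muscle (VSM) cells, chosen by gene symbol from a list of 36. The list holds the Nrf2 regulators, heme and quinone enzymes, the glutathione and thioredoxin systems, superoxide dismutases, catalase, peroxidases, peroxiredoxins, ferritin and subunits of the NADPH oxidase. Of the 36, 35 were found among the 14475 genes of the count table, and Srxn1 (sulfiredoxin) was not analysed here. The cells were grown from the soleus feed artery (SFA), the vessel that supplies the soleus muscle, of male rats without genetic modification. Young rats were 4 months and old rats 24 months of age. Polyadenylated RNA of 3 young and 3 old cultures was sequenced, and cells of both ages had been kept in the same serum-containing medium, so the values describe VSM cells in culture and not in the vessel wall. Each library is a culture, and p-values measure the spread between these 6 cultures. The study compared the age groups to find genes whose expression changes with age.

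Nrf2, encoded by Nfe2l2, is a transcription factor that Keap1 holds in the cytoplasm and marks for degradation. Oxidants and electrophiles modify Keap1, after which Nrf2 enters the nucleus, pairs with small Maf proteins and binds antioxidant response elements near genes for glutathione synthesis, quinone reduction, heme breakdown and iron storage. Superoxide dismutases turn superoxide into hydrogen peroxide, which catalase, glutathione peroxidases and peroxiredoxins remove. In VSM cells, NADPH oxidases are a main source of superoxide and peroxide.

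Counts on genes summed to between about 44235700 and 59700900 per library, and each of the 35 genes had at least 271 counts in each library. These counts may include both mates of a read pair, as described with the processing. Levels are given as CPM, read counts scaled to a common normalized library size, and comparisons of levels are made within a gene only. The 7 markers of VSM cells summed to 11177 to 20886 CPM in the young libraries and to 3445 to 5553 CPM in the old libraries. Acta2 and Tagln made up most of this sum. Des overlapped between the ages, and the other VSM markers were lower in each old library. The 6 fibroblast markers summed to 243 to 664 CPM in young and to 1090 to 1994 CPM in old. Pdgfra, Dcn and Col14a1 were higher in each old library, while Lum, Dpt and Pi16 overlapped between the ages. Of the skeletal muscle markers only Myh1 was in the table (1 of 6), at 58.9 to 138 CPM in young and 2.00 to 27.8 CPM in old. By the thresholds given below, DESeq2 called Acta2, Myh11, Tagln, Cnn1, Lmod1, Dcn, Col14a1 and Myh1 (5.56% of all genes were called). Smtn, Des, Pdgfra, Lum, Dpt and Pi16 were not called, and edgeR called none of these markers. With 1 library left out, DESeq2 called Dcn and Myh1 in 2 of 6 fits each and the other called markers in 6 of 6. The 2 of 4 Schwann cell markers in the table summed to 12.4 to 74.96 CPM in young and 54.1 to 85.2 CPM in old. Over the 6 libraries, 4 of 6 endothelial markers summed to 4.01 to 18.2 CPM and 2 of 6 macrophage markers to 0.407 to 2.90 CPM, and 0 of 6 erythroid markers were in the table. The defining markers Cdh5 and Ptprc had no row with their symbol in the table used here. In RNA of a whole culture, fewer cells of one type and less RNA per cell cannot be told apart, and the part of the marker shift in the results that follow was not tested.

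Most antioxidant genes differed little in mean level between the age groups, and none passed the test. A gene was called differentially expressed (DEG) where the adjusted p was under 0.05 and the level differed at least 2-fold, a log2 fold change of 1 or more in size. edgeR's quasi-likelihood test called no gene of the list (0 of 35, against 0.00691% of all genes). The DESeq2 Wald test called 0 of 35 as well (5.56% of all genes), and limma-voom called 0 of 35 (0% of all genes). At an unadjusted p under 0.05, edgeR gave 7 of 35 genes (20.0%, against 22.6% of all genes) and limma-voom gave 7 (23.1% of all genes). No gene of the list reached an absolute log2 fold change of 1 (0 of 35), against 11.4% of all genes and with 6.65% of the 9339 genes that were at least as abundant as the lowest of the 35. The log2 fold changes, old minus young, ranged from -0.57 for Txnrd1 to 0.95 for Hmox1. Their median was -0.08, and it was 0.02 over all genes. Higher means in old were found for 12 genes (34.3%, against 52.0% of all genes) and lower means for 23. The median absolute log2 fold change was 0.19, and it was 0.21 over those 9339 genes, a set with a lower limit on level that was not otherwise matched in abundance.

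**Figure D1:**
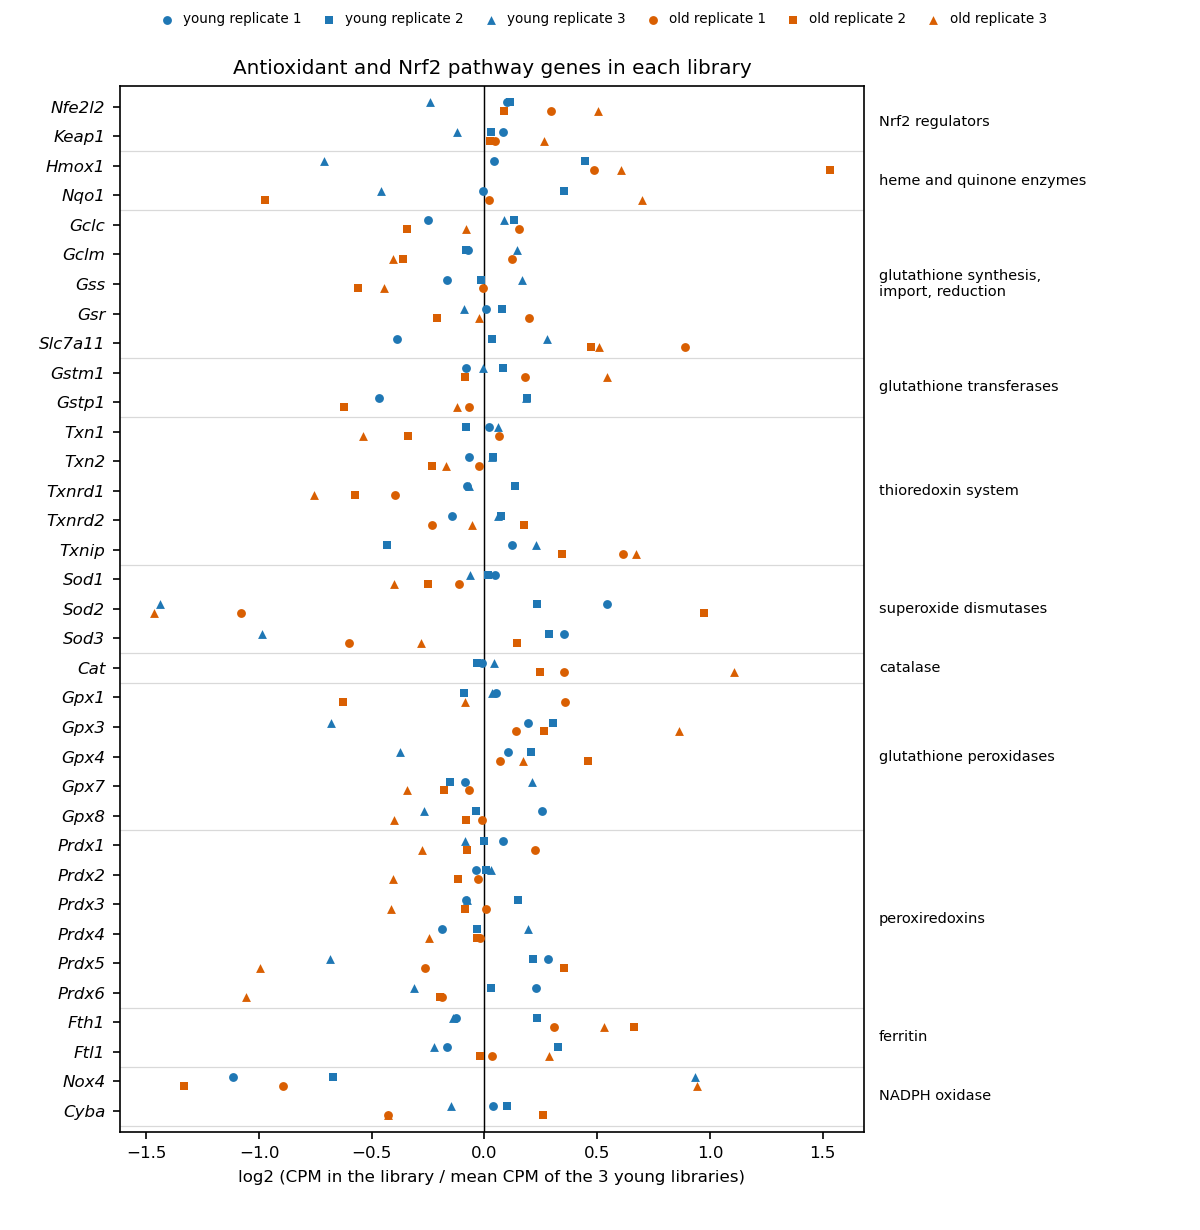
Each row is 1 of the 35 antioxidant genes, grouped by role, and each point is 1 library on a horizontal axis of the log2 ratio of the CPM in that library to the mean CPM of the 3 young libraries, with young in blue and old in orange. Most points lie within 0.5 of the young mean, while Sod2 and Nox4 show a wide spread in both age groups.

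How far these data limit a difference depends on the gene. The 95% interval of the log2 fold change lay between -1 and 1 for 24 of the 35 genes, so that a change of 2-fold or more was outside the interval. The share was 68.6%, and it was 79.3% among the 9339 genes at least as abundant as the lowest of the 35. For the other 11 genes (Hmox1, Nqo1, Slc7a11, Txnip, Sod2, Sod3, Cat, Gpx3, Prdx5, Prdx6 and Nox4) the interval went past 1 in at least one direction. A lack of a call for these genes therefore leaves room for a 2-fold difference. The 3 old libraries lay entirely above or entirely below the 3 young libraries for 7 of the 35 genes (20.0%, against 29.2% of all genes). Of the 7, 5 were higher in old (14.5% of all genes) and 2 were lower (14.7% of all genes). The 7 genes were Hmox1, Slc7a11, Cat, Txnip and Fth1 above, and Txnrd1 and Sod1 below.

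**Figure D2:**
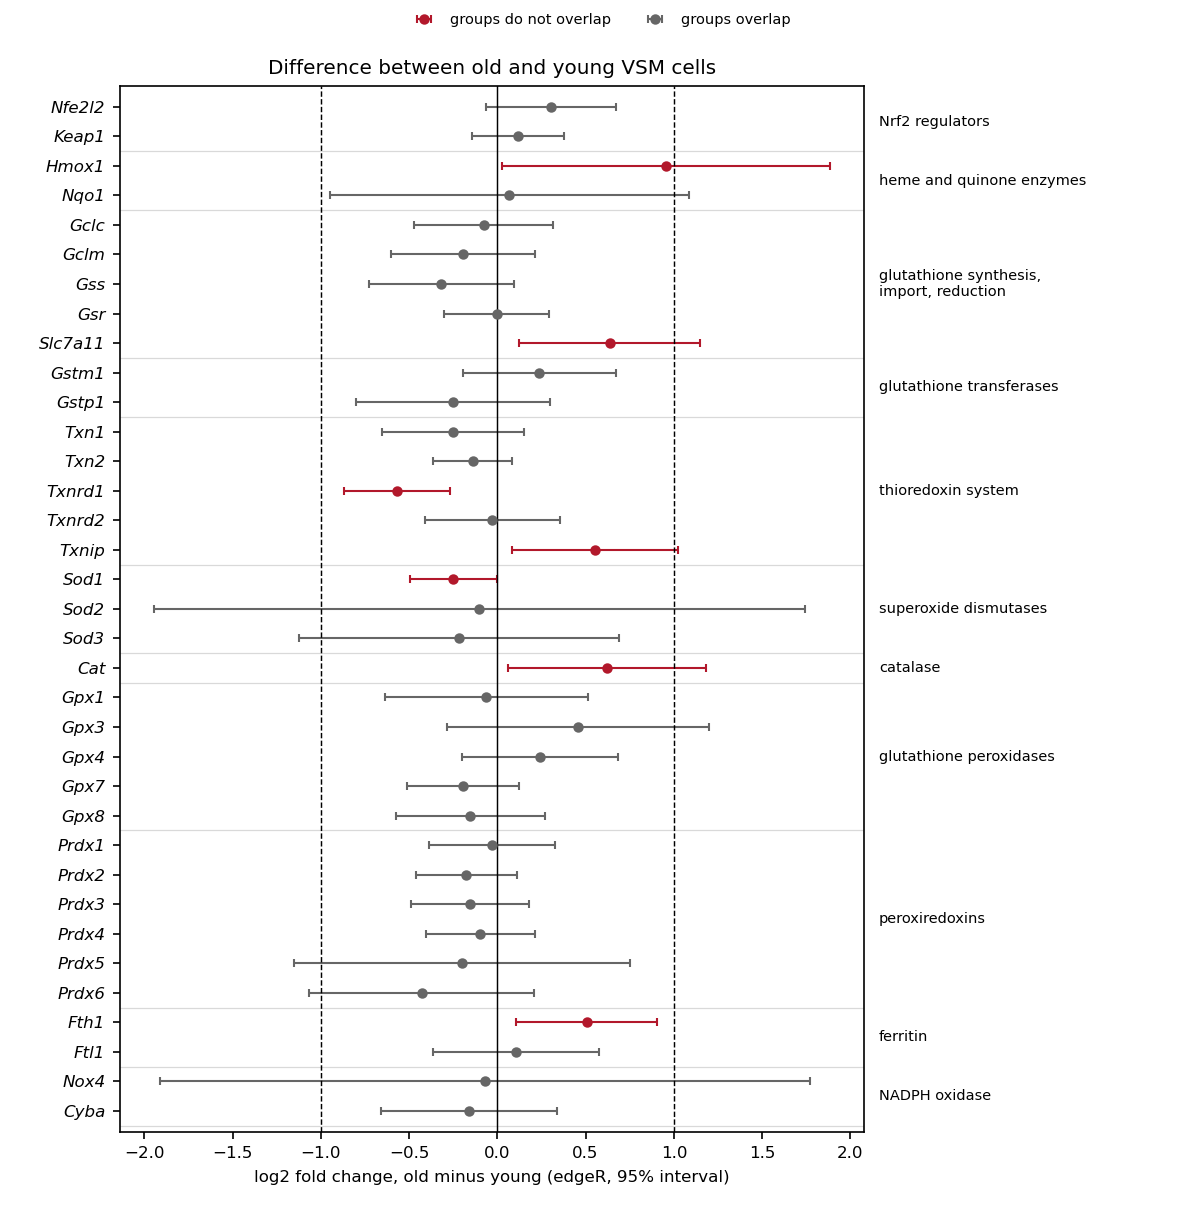
The horizontal axis is the edgeR log2 fold change, old minus young, with its 95% interval for each of the 35 genes, and dashed lines mark -1 and 1. Red points are the 7 genes whose age groups did not overlap, and the widest intervals are those of Sod2 and Nox4.

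Promoter sequence was searched for the core of the antioxidant response element, the site through which Nrf2 and small Maf proteins act, spelled TGACNNNGC and sought on both strands. RefSeq promoters on the rat assembly GRCr8, 250 bases before to 50 bases after the gene start, matched 27 of the 35 genes by symbol. Fth1, Ftl1, Gpx8, Gsr, Hmox1, Prdx6, Sod3 and Txnip had no entry. The core was found in 8 of the 27 genes (29.6%), compared with 13.1% of the 27457 gene symbols with a promoter, 12.1% of all 33469 promoters of that length. The matches are shown as stretches near the gene start that carry the letters of this core. Each is given 5′ to 3′ on the strand that carries TGAC, with the core in capitals and up to 10 bases on each side.
Gclm: tggaagacaaTGACTAAGCagaaaccgca
Gstp1: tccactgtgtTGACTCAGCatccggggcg
Nfe2l2: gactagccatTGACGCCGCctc
Prdx1: cggcggggtaTGACTCAGCgctttccctg
Prdx4: cacgtttccaTGACCAAGCgagcacgaaa
Prdx5: cacccgcagaTGACTCTGCccacaggagg
Sod2: agctaggcgcTGACCCTGCcggcagcgcc
Txnrd1: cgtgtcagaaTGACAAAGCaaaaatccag

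The cores of Gstp1 and Prdx1 also hold the AP-1 motif TGANTCA, which overlaps the antioxidant response element in them and in none of the other 6. On GRCr8 the printed stretches are chr2:213031953-213031981 on the minus strand for Gclm, chr1:210769748-210769776 on the minus strand for Gstp1 and chr3:81028950-81028971 on the minus strand for Nfe2l2. Those of the peroxiredoxins are chr5:135383761-135383789 on the minus strand for Prdx1, chrX:43878742-43878770 on the minus strand for Prdx4 and chr1:213532010-213532038 on the plus strand for Prdx5. The stretch of Sod2 is chr1:50050185-50050213 and that of Txnrd1 is chr7:22755964-22755992, both on the plus strand. In Gclm, Gstp1, Prdx1, Prdx5, Sod2 and Txnrd1 the core began before the gene start, from 172 bases upstream in Gclm to 1 base upstream in Prdx5, and in Nfe2l2 and Prdx4 it lay 39 and 20 bases after it. Among the 8 genes with the core, 1 had a higher and 7 had a lower mean in old (52.0% of all genes were higher), and their median difference was -0.15 on the log2 scale. Among the 19 genes without it, 7 were higher and 12 lower, with a median of -0.07. The log2 fold changes overlapped, from -0.57 to 0.31 with the core and from -0.32 to 0.64 without it. The 8 genes with no promoter entry were in neither group. Of these, Hmox1, Txnip, Fth1 and Ftl1 had higher and Gpx8, Gsr, Prdx6 and Sod3 lower means in old. Whether genes with and without the core differed was not tested. A core in this window is a match of letters and not a measured binding site. Sequence outside the window was not searched, so a gene without the core here may hold one elsewhere.

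Both regulators of the pathway had higher means in old, with groups that overlapped. Nfe2l2 had 217, 220 and 172 CPM in the young libraries and 249, 216 and 288 CPM in the old libraries. Old replicate 2 fell among the young values, so the groups overlapped, and the log2 fold change was 0.31 (standard error, SE, 0.15, edgeR adjusted p = 0.282). Keap1 had 33.0, 31.8 and 28.6 CPM in young and 32.1, 31.7 and 37.4 CPM in old, a log2 fold change of 0.12 (95% interval -0.14 to 0.37). Since Nrf2 is regulated mainly through its protein, these transcript levels say nothing of its activity.

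Hmox1 and Nqo1, both widely used as readouts of Nrf2, had different patterns over the libraries. Hmox1 (ENSRNOG00000014117), the inducible heme oxygenase that breaks heme down to biliverdin, iron and carbon monoxide, had 178, 235 and 105 CPM in young and 242, 500 and 262 CPM in old. All old libraries were above the young ones, but old replicate 1 was only just above young replicate 2. The mean was 173 ± 64.8 CPM (SD over 3 cultures) in young and 335 ± 143 CPM (SD over 3 cultures) in old, a log2 fold change of 0.95 (SE 0.39, edgeR adjusted p = 0.213). This was the largest fold change of the list, 1.94-fold, and its 95% interval ran from 0.02 to 1.89. The estimate leaned on old replicate 2: it dropped to 0.54 on the log2 scale with that library left out, and was 1.25 without young replicate 2. With old replicate 1 left out, DESeq2 called Hmox1 a DEG (log2 fold change 1.14, adjusted p = 0.0372 from DESeq2), the only call of any of the 35 genes with a library left out in either edgeR or DESeq2. In that setting DESeq2 called 9.51% of all genes. Nqo1, the quinone reductase, had 175, 224 and 128 CPM in young and 178, 89.4 and 285 CPM in old. Its highest and its lowest library were both old, and its log2 fold change of 0.07 (95% interval -0.95 to 1.08) turned to -0.39 without old replicate 3. Old replicate 2 was therefore the library with the highest Hmox1 and the lowest Nqo1.

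Among genes for the synthesis, recycling and import of glutathione and its precursor, the age groups overlapped for 4 and were apart for the cystine importer. Gclc and Gclm encode the catalytic and modifier subunits of glutamate-cysteine ligase, the rate-limiting step of glutathione synthesis. Gclc had 48.4, 63.2 and 61.2 CPM in young and 64.1, 45.5 and 54.3 CPM in old, and its log2 fold change was -0.08 (95% interval -0.47 to 0.32). Gclm, from 16.4 to 24.0 CPM over the 6 libraries, had a log2 fold change of -0.19 (95% interval -0.60 to 0.22). Glutathione synthetase Gss was at 46.7 ± 5.42 CPM (SD over 3 cultures) in young and 37.5 ± 7.91 CPM (SD over 3 cultures) in old. Its log2 fold change was -0.32 (95% interval -0.73 to 0.10), and without old replicate 1 it was -0.50, with an adjusted p of 0.0657 by edgeR and 0.00823 by DESeq2 in that setting. Gss was not called there, while edgeR called 5.06% and DESeq2 9.51% of all genes. Other genes of the list also had a low DESeq2 adjusted p in that setting, such as Txn1 (0.00224) and Sod1 (0.00634). Glutathione reductase Gsr, which regenerates reduced glutathione, was at 41.1 ± 2.37 and 41.0 ± 5.80 CPM (SD, 3 cultures per age), with an interval of the log2 fold change from -0.30 to 0.30. Slc7a11 (ENSRNOG00000010210) encodes the cystine-glutamate exchanger that brings in the cystine from which glutathione is made. It had 6.00, 8.05 and 9.51 CPM in young and 14.6, 10.9 and 11.2 CPM in old. Each old library was above each young library, and the log2 fold change was 0.64 (SE 0.21, adjusted p 0.167 by edgeR and 0.0759 by DESeq2). The glutathione transferases, which attach glutathione to electrophiles, overlapped between the groups, with log2 fold changes of 0.24 for Gstm1 and -0.25 for Gstp1. Gstm1 has close paralogs, and how reads matching several of them were counted is not given in the sources used here.

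In the thioredoxin system, thioredoxin reductase 1 and the thioredoxin inhibitor Txnip stood on opposite sides. Txnrd1 (ENSRNOG00000009088), the selenoenzyme that reduces thioredoxin in the cytosol, had 174, 202 and 175 CPM in young and 140, 124 and 109 CPM in old. Replicates of each age lay close together and the groups were apart, with 184 ± 15.8 CPM (SD over 3 cultures) in young and 124 ± 15.5 CPM (SD over 3 cultures) in old. The log2 fold change was -0.57 (SE 0.13, edgeR adjusted p = 0.0924), the lowest adjusted p of the 35 genes. DESeq2 gave an adjusted p of 0.00278 for Txnrd1, and Txnrd1 and Fth1 were the 2 genes of the list (5.71%, against 12.2% of all genes) with a DESeq2 adjusted p under 0.05 at any fold change. Dropping any one library left its log2 fold change between -0.66 and -0.48. Txnip (ENSRNOG00000021201), which binds thioredoxin and blocks its activity, had 223, 152 and 240 CPM in young and 315, 261 and 327 CPM in old. All old libraries were above the young ones, with a log2 fold change of 0.55 (SE 0.20, adjusted p 0.178 by edgeR and 0.0913 by DESeq2). Thioredoxin itself differed less. Txn1 had 287, 267 and 294 CPM in young and 295, 224 and 194 CPM in old, and old replicate 1 was at the top of the 6 libraries. The mitochondrial pair Txn2 and Txnrd2 had log2 fold changes of -0.14 and -0.03, with intervals from -0.36 to 0.08 and from -0.41 to 0.35.

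Superoxide dismutases convert superoxide in the cytosol (Sod1), the mitochondria (Sod2) and outside the cell (Sod3). Sod1 (ENSRNOG00000002115) was lower in each old library, with 146, 143 and 135 CPM in young and 131, 119 and 107 CPM in old. The difference was small, 141 ± 5.57 against 119 ± 11.9 CPM (SD, 3 cultures per age), a log2 fold change of -0.25 (SE 0.10, edgeR adjusted p = 0.219). Sod2 had 327, 264 and 82.8 CPM in young and 106, 441 and 81.3 CPM in old. Its values varied 3.95-fold among young and 5.42-fold among old cultures, and the interval of its log2 fold change, from -1.95 to 1.74, was the widest of the list. Sod3 had 571, 545 and 226 CPM in young and 294, 494 and 368 CPM in old, with overlapping groups and a log2 fold change of -0.22 (SE 0.38).

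Catalase, which splits hydrogen peroxide into water and oxygen, was higher in each old library than in any young one. Cat (ENSRNOG00000008364) had 76.6, 75.3 and 79.4 CPM in young, a range of 1.05-fold, and 98.4, 91.3 and 166 CPM in old. Old replicate 3 stood above the other old libraries and carried much of the difference. The log2 fold change was 0.62 (SE 0.23, edgeR adjusted p = 0.193) with all libraries and 0.30 without old replicate 3.

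**Figure D3:**
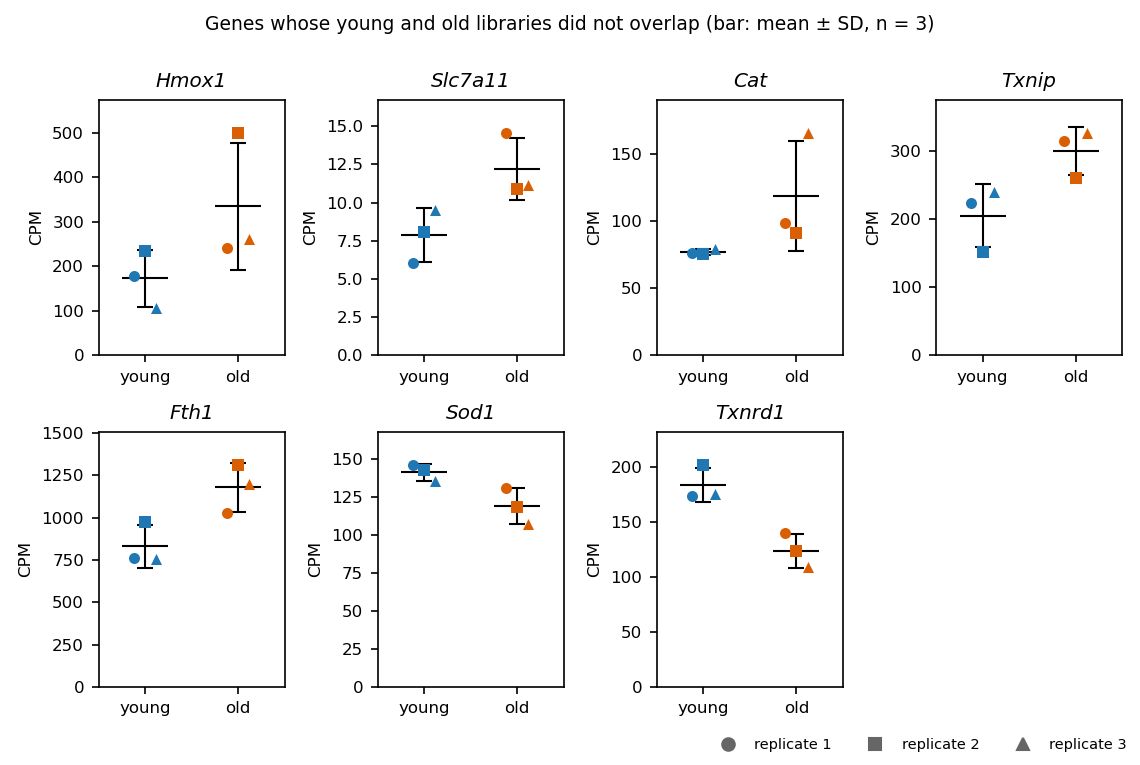
CPM of the 7 antioxidant genes whose young and old libraries did not overlap, with 1 point per library, a marker shape per replicate number and bars for the mean ± SD of 3 libraries. From axes that start at 0, Hmox1 and Cat each have 1 old library well above the others (500 and 166 CPM), whereas the replicates of Txnrd1 lie close together in both groups.

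Glutathione peroxidases, which reduce peroxides with glutathione or related thiols, overlapped between the groups for each of the 5 genes. The extracellular Gpx3 had 264, 286 and 145 CPM in young and 255, 278 and 422 CPM in old. Young replicate 3 was the lowest and old replicate 3 the highest library, and the log2 fold change of 0.46 (95% interval -0.28 to 1.20) was the largest of this family. Gpx4, which removes lipid peroxides from membranes, had a log2 fold change of 0.24 (95% interval -0.20 to 0.68). The cytosolic Gpx1 was even among young cultures, at 211, 191 and 208 CPM, and less so among old cultures, at 261, 132 and 192 CPM. Gpx7 and Gpx8, peroxidases of the endoplasmic reticulum, had log2 fold changes of -0.19 and -0.15.

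Peroxiredoxins are abundant thiol peroxidases, and the 6 genes had lower means in old, where 52.0% of all genes had higher ones, with 0 of 6 passing the test and adjusted p from 0.364 to 0.920 in edgeR. The sign did not depend on the scaling (6 of 6 lower with RLE size factors, with library size only and in DESeq2), but 4 of 6 were lower without old replicate 3 and 5 of 6 without young replicate 1 or without young replicate 3. Prdx2 was the most even of them among the young cultures, at 186, 191 and 194 CPM, and had 187, 176 and 144 CPM in old. Its log2 fold change was -0.18 (95% interval -0.46 to 0.11). Prdx1 and the mitochondrial Prdx3 had log2 fold changes of -0.03 and -0.15, with intervals inside -0.49 and 0.33. Prdx4, of the endoplasmic reticulum, had a log2 fold change of -0.10. Prdx6 (361, 314 and 248 CPM in young, 270, 269 and 148 CPM in old) had the largest difference of the family, with a log2 fold change of -0.43 (SE 0.26, edgeR adjusted p = 0.364). Prdx5 had 509, 486 and 260 CPM in young and 349, 534 and 210 CPM in old, and thus differed more between cultures of one age than between the ages.

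Of the ferritin subunits, which form the iron storage shell, the heavy chain was higher in old and the light chain was not separated. Fth1 (ENSRNOG00000022619), whose product oxidizes iron for storage, had 761, 975 and 755 CPM in young and 1027, 1313 and 1199 CPM in old. The groups were apart, at 830 ± 125 and 1180 ± 144 CPM (SD, 3 cultures per age), with a log2 fold change of 0.51 (SE 0.17, adjusted p 0.162 by edgeR and 0.0355 by DESeq2). Ftl1 had 1032, 1449 and 990 CPM in young and 1184, 1139 and 1411 CPM in old, a log2 fold change of 0.11 (95% interval -0.36 to 0.57). Ferritin genes have processed pseudogenes in rat, and reads shared with these are uncertain. Fth1 and Hmox1 ranked the 6 libraries in the same order, from old replicate 2 to young replicate 3.

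Nox4 and Cyba encode the peroxide-producing oxidase of smooth muscle and its partner subunit p22phox. Nox4 had 6.27, 8.53 and 26.0 CPM in young and 7.32, 5.39 and 26.1 CPM in old. At both ages the library numbered 3 stood far above the others of its group, and the log2 fold change between ages was -0.07 (95% interval -1.91 to 1.77). Without young replicate 3 it was 0.80 and without old replicate 3 it was -1.10, so the sign rested on which of these libraries was present. Cyba had 80.5, 83.8 and 70.6 CPM in young and 58.2, 93.8 and 58.2 CPM in old, a log2 fold change of -0.16 (95% interval -0.66 to 0.34).

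Of the 35 genes, 6 varied more than 2-fold between cultures of the same age, 4 of them among young and 5 among old cultures. They were Hmox1, Nqo1, Sod2, Sod3, Prdx5 and Nox4. Of the 9339 genes at least as abundant as the lowest of the 35, 586 varied that much among young and 955 among old cultures. The median coefficient of variation of the 35 genes was 13.4% in young and 17.1% in old, compared with 9.94% and 14.6% over the 12257 genes above 1 CPM. Sod2 and Prdx5 ranked the 6 libraries in the same order, from old replicate 2 down through young replicates 1 and 2, old replicate 1 and young replicate 3 to old replicate 3. Nox4 was highest in the 2 libraries in which Sod2 and Prdx5 were lowest. Txnip and Cat also shared an order, led by old replicate 3, as did Gclm and Gpx7, led by young replicate 3, and Hmox1 and Fth1, as given above. These orders were noticed after the values were seen and are given as a description of 6 cultures. The 35 genes form many pairs, and how many would share an order without any link was not tested.

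**Figure D4:**
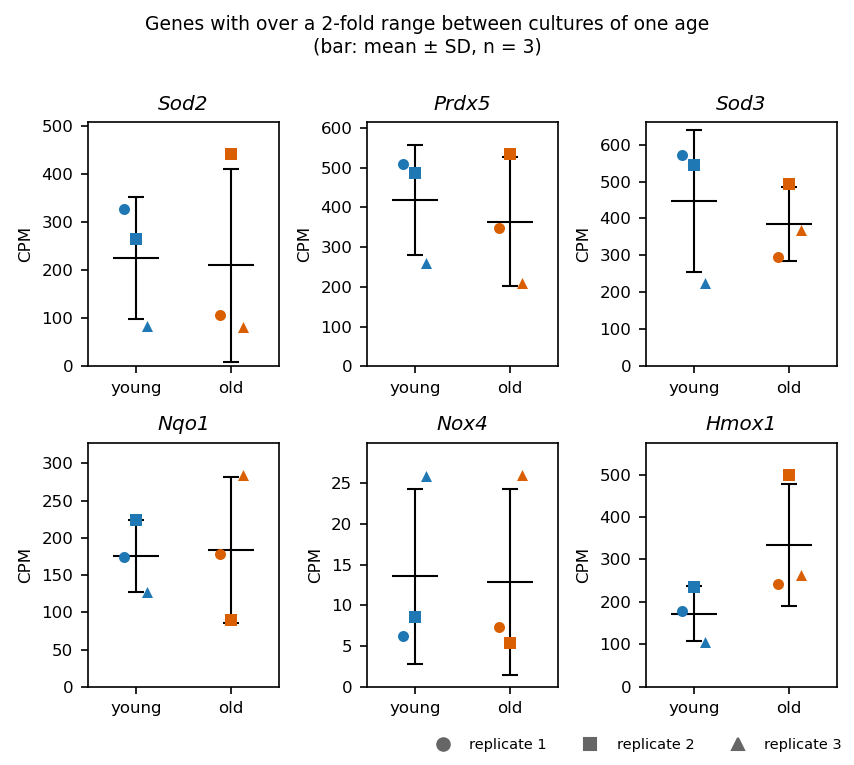
CPM of the 6 antioxidant genes that varied more than 2-fold between cultures of one age, with 1 point per library, a marker shape per replicate number and bars for the mean ± SD of 3 libraries. On axes that start at 0, Sod2 and Prdx5 are low and Nox4 is high in replicate 3 of both ages.

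Beyond the 35 genes, a list of 131 related genes was examined, covering partners of Nrf2, NADPH supply, further glutathione transferases, methionine sulfoxide reductases, selenoproteins, metallothioneins, iron handling and other oxidases. Of these, 116 were in the table. edgeR called 0 of 116 as DEGs, with 33 at an unadjusted p under 0.05 (28.4%, against 22.6% of all genes), and limma-voom called 0, with 29 at an unadjusted p under 0.05 (23.1% of all genes). DESeq2 called 7 of 116 (6.03%, against 5.56% of all genes), of which 7 were higher in old (2.25% of all genes) and 0 lower (3.31% of all genes). They were Xdh, Gstm7, Sesn3, Maob, Selenop, Slc40a1 and Mgst1, of which Maob and Mgst1 fall outside the naming rule and were named for their call. The age groups did not overlap for 35 of the 116 genes (30.2%, near the background of 29.2%). The median log2 fold change was 0.06.

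The related genes that DESeq2 called had larger fold changes than any of the 35, but none was called by edgeR. Xdh, xanthine dehydrogenase, whose oxidase form releases superoxide and peroxide while making urate, had 72.7, 48.5 and 11.8 CPM in young and 150, 252 and 214 CPM in old. Its log2 fold change was 2.21 (SE 0.62, adjusted p 0.127 by edgeR and 0.00207 by DESeq2), and it was 1.76 without young replicate 3. Sesn3, a sestrin that is induced by FoxO factors and restrains mTORC1, had 38.7, 32.0 and 32.0 CPM in young and 102, 100.1 and 149 CPM in old. Its young replicates were close, while old replicate 3 stood above the other old libraries. The log2 fold change was 1.77 (SE 0.19, adjusted p 0.0531 by edgeR and 1.99e-13 by DESeq2), and it was 1.56 without old replicate 3. Selenop, the secreted selenium carrier, had 36.7, 47.1 and 51.8 CPM in young and 81.2, 142 and 212 CPM in old, a log2 fold change of 1.68 (adjusted p 0.0801 by edgeR and 0.000125 by DESeq2). Slc40a1, the iron exporter ferroportin, had 4.92, 7.93 and 4.48 CPM in young and 9.19, 19.6 and 20.6 CPM in old, a log2 fold change of 1.51 (adjusted p 0.107 by edgeR and 0.00247 by DESeq2). Gstm7, a glutathione transferase near the lower end of expression, had 1.04, 1.28 and 0.855 CPM in young and 3.42, 3.54 and 4.55 CPM in old, a log2 fold change of 1.85 (adjusted p 0.0531 by edgeR and 1.2e-08 by DESeq2). Over the same libraries the summed fibroblast markers were also higher in old, as given above, and their part in these genes was not tested. Without old replicate 1, edgeR called 5 of the 116 related genes, a setting in which it called 5.06% of all genes.

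On the lower side, the largest differences among related genes with separated groups were those of Mafk, Pir, Msrb3, Ggt1 and Msrb1, each with all old libraries below the young ones. Mafk encodes a small Maf partner of Nrf2 and had 3.90, 4.47 and 4.21 CPM in young and 1.71, 2.33 and 2.35 CPM in old, a log2 fold change of -0.98 (SE 0.21, adjusted p 0.0913 by edgeR and 0.000400 by DESeq2). Pir, the quercetinase pirin, had 39.5, 50.7 and 35.6 CPM in young and 26.8, 22.1 and 21.6 CPM in old. Its log2 fold change was -0.84 (adjusted p 0.0743 by edgeR and 0.000595 by DESeq2). Msrb3 and Msrb1 reduce oxidized methionine. Their log2 fold changes were -0.74 (adjusted p 0.103 by edgeR and 0.00596 by DESeq2) and -0.67 (0.160 by edgeR and 0.0516 by DESeq2). Ggt1, which cleaves extracellular glutathione, was at 5.21 ± 0.193 CPM (SD over 3 cultures) in young and 3.23 ± 0.768 CPM (SD over 3 cultures) in old. Its log2 fold change was -0.69 (adjusted p 0.153 by edgeR and 0.0319 by DESeq2). The metallothioneins, chosen after their values were seen, varied more among young cultures than any of the 35 genes, by 20.5-fold for Mt2A and 14.6-fold for Mt1. Mt2A had 42.0, 20.9 and 2.06 CPM in young and 64.7, 152 and 27.0 CPM in old, with replicate 3 the lowest of each group, and a log2 fold change of 1.91 (95% interval -0.62 to 4.43). Mt1 had 18.7, 11.6 and 1.28 CPM in young and 31.0, 41.6 and 15.2 CPM in old, again lowest in replicate 3.

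**Figure D5:**
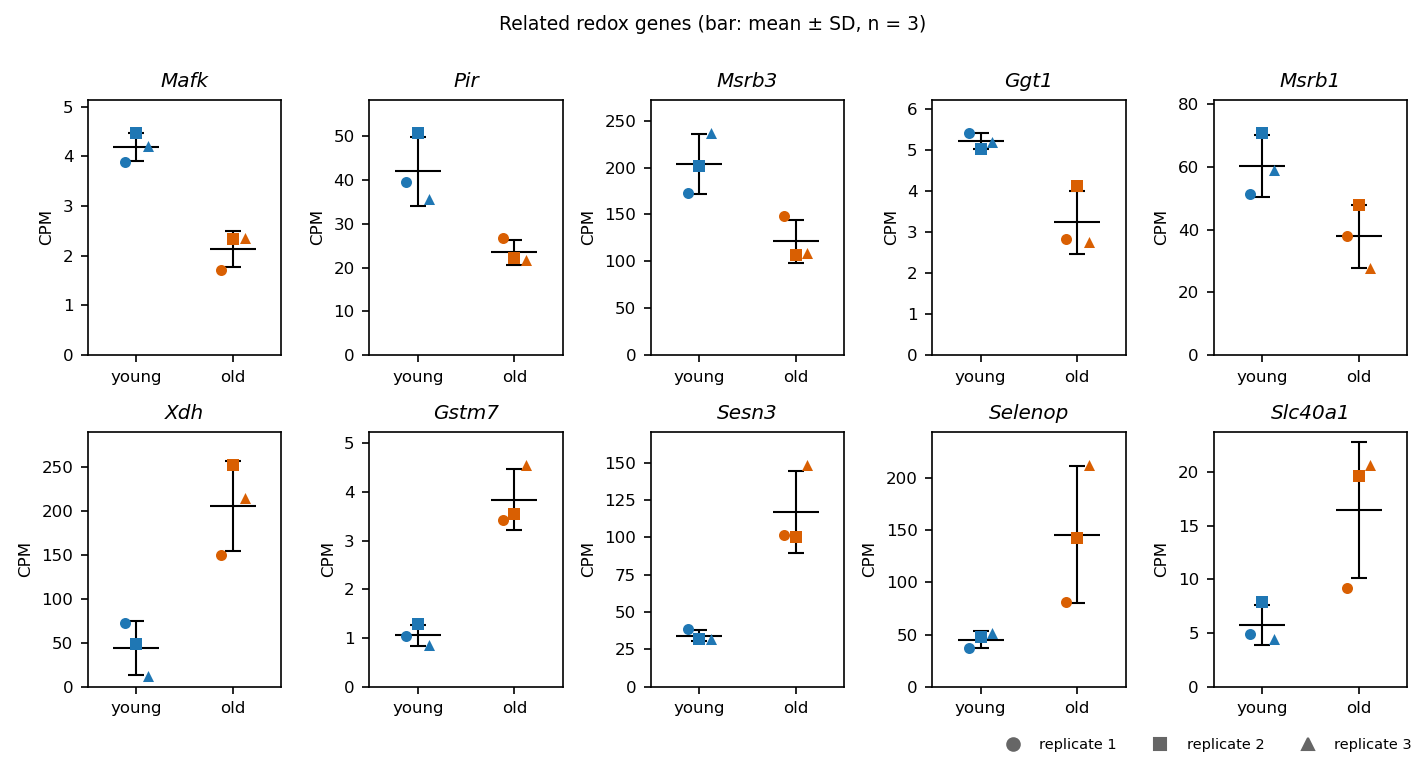
CPM of the 10 related redox genes chosen by the naming rule, with 1 point per library, a marker shape per replicate number and bars for the mean ± SD of 3 libraries. On axes that start at 0, the top row holds genes that were lower in each old library, such as Mafk, and the bottom row genes that were higher in each old library, such as Xdh and Sesn3.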

How the data were processed

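Libraries of 3 young and 3 old VSM cell cultures were analysed. The deposited values are raw counts per gene, whole numbers that the authors had not normalized. Per the Methods and the submitters' processing notes, reads were trimmed with Cutadapt 3.5 through TrimGalore 0.6.7, aligned with STAR 2.7.10b to the rat v6.0 assembly and counted with featureCounts of Subread 2.0.8. The Methods name a RefSeq annotation while the table carries Ensembl identifiers, so which annotation was counted is not settled. How strand and reads with several matches were handled is not given in the sources, which leaves genes with close copies uncertain. Of the low counts, 68.7 to 71.1% were even in each library. The summed counts of each library also exceeded the range of reads per sample given in the Methods. Many read pairs were therefore probably counted by both mates, and counts were also halved as an alternative.

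All deposited genes were fitted in R 4.3.3 with edgeR 4.0.16 (TMM, quasi-likelihood F test, young as reference, no covariates, Benjamini-Hochberg adjustment over all genes). Standard errors were taken from the F statistic as |log2 fold change|/√F, and 95% intervals used the moderated degrees of freedom. DESeq2 1.42.0 with independent filtering at 0.05 and limma 3.58.1 (voom) were alternatives, and scripts were tested on simulated counts. With 3 libraries against 3, an exact two-sided permutation test cannot give a p under 0.10. All 35 genes found by symbol were named. Related genes were named if called by edgeR, or as the 5 largest rises and 5 largest falls among those at 1 CPM or more whose groups did not overlap. The genes and lists were chosen with earlier results of these data known.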

Additional observations from a re-analysis of the deposited data

How the results depend on the processing

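The number of DEGs among all genes depended on the test: it was 1 in edgeR, 65 after a filter of at least 1 CPM in at least 3 libraries, 381 at an adjusted p under 0.1, 805 in DESeq2 and 0 in limma-voom. With 1 library left out it was 0 to 732 in edgeR, the highest without old replicate 1. DESeq2 with 1 library left out, added after the data had been seen, gave 737, 551 and 600 without young replicates 1, 2 and 3, and 1377, 614 and 651 without old replicates 1, 2 and 3. The antioxidant genes gave 0 DEGs under each of these settings except DESeq2 without old replicate 1, which called 1. The related genes gave 2 after the filter, 7 in DESeq2, 3 at an adjusted p under 0.1, 0 to 5 in edgeR with 1 library left out (5 without old replicate 1) and, in DESeq2, 7, 6 and 9 without young replicates 1, 2 and 3 and 9, 9 and 8 without the old ones. The median log2 fold change of the 35 genes was -0.06 with library size only, -0.12 in limma-voom and -0.11 to -0.03 with 1 library left out. The 7 separated genes kept their direction in 91 of 91 alternative values. Their choice largely fixed this, since groups that do not overlap stay apart with any 1 library left out. It is therefore no measure of how stable these differences are.

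The sign turned in 24 of 455 alternative values, in 10 genes. None of the 35 genes had passed the edgeR test, whether or not the sign turned. With 1 library left out, the log2 fold change ranged from -0.39 to 0.40 for Nqo1, from -0.21 to 0.037 for Gclc, from -0.11 to 0.089 for Gsr, from -0.14 to 0.063 for Txnrd2, from -1.26 to 0.28 for Sod2, from -0.33 to 0.15 for Gpx1, from -0.17 to 0.082 for Prdx1, from -0.18 to 0.012 for Prdx4, from -0.58 to 0.077 for Prdx5 and from -1.10 to 0.80 for Nox4. Nqo1 was at -0.042 in limma-voom and at -0.043 with the replicate block, and Gsr was at 0.0075 with library size only. The cause was not tested.

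With the replicate number as a block, edgeR called 1 DEG among all genes, 0 antioxidant genes and 0 related genes, and the median of the 35 genes was -0.12. Same-numbered young and old libraries correlated at 0.06, 0.31 and 0.29 in their deviations from the group means over 12257 genes, so not every pair was over 0.1 and the numbers were not taken as a pairing. Young replicates 2 and 3 correlated best with the old library of their own number, and young replicate 1 with old replicate 2 (0.35). Whether same-numbered libraries share a batch was not tested. With halved counts edgeR again called 0 antioxidant and 0 related genes, which says nothing of depth since none was called before. The small number of cultures limits the precision, most of all for Sod2 and Nox4.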
